A study of Mus musculus with 9 samples.

Results

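Interferon-stimulated genes are described here in myeloid cells sorted from the retinas of mice whose photoreceptors degenerate in light. The members were 9 genes chosen by symbol, Irf7, Isg15, Ifit3, Oasl2, Ifi204, Ifitm3, Bst2, Ifi27l2a and Ly6e, out of 27998 genes in the count matrices. The rule names them and holds no measured value, but earlier results of these data were known when they were chosen. All retinas came from female Arr1-/- mice, which lack visual arrestin (gene symbol Sag) and were raised in darkness. The mice were kept in the dark (day 0, labelled healthy retina) or placed under constant room light of about 200 lux for 7 days (day 7) or 20 days (day 20). Cells positive for CD45 and CD11b, a gate that takes microglia, monocytes and macrophages alike, were sorted and sequenced as single cells with droplet chemistry that reads the 3′ ends of transcripts, in 3 libraries per day. No light-exposed mice with intact arrestin were among these libraries, so light and degeneration cannot be told apart. Sample titles write hours where the treatment labels write days, and the days were used.

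Type I interferons signal through a receptor shared by all of them, Ifnar1 with Ifnar2, and through the kinases Jak1 and Tyk2 to transcription factors that bind the interferon-stimulated response element, a DNA motif near the start of their target genes. Interferon-gamma uses a receptor of its own. Targets include Irf7, a transcription factor that amplifies interferon production, and proteins that restrict viruses at entry, replication or release. In the nervous system, subsets of microglia express such genes in ageing and after injury, and infiltrating monocytes express many of them.

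Promoter sequences were compared because 4 members rose together at day 7 in the comparison that follows. RefSeq windows of 300 bases on GRCm38.p6, from 250 bases before to 50 after the annotated start, were at hand for 6 of the 9 members, and Ifi204, Ifi27l2a and Ly6e had none. The core of the response element was searched as GAAA, any 2 bases and GAAA, or, for the other strand, as TTTC, any 2 bases and TTTC. It occurred in 4 of the 6 members, Isg15, Bst2, Ifit3 and Ifitm3, and not in the windows of Irf7 and Oasl2, against 1131 of all 32851 windows (3.44%). The first stretch below is that of the member with the most matches, which was low throughout (Isg15). The next are those of 2 members that rose and held matches (Bst2 and Ifitm3). The last is that of Irf7, which rose with no match in its window. Oasl2 also had no match, and it rose in a later fit that kept genes of low counts. Capitals mark every match.
Isg15, upstream of its start, chr4:156200819-156201068, minus strand: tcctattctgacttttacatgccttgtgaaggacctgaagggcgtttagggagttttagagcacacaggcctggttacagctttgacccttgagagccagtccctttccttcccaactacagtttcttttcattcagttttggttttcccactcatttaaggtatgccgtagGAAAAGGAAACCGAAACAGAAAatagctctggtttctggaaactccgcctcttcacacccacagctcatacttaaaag
Bst2, upstream of its start, chr8:71537473-71537722, minus strand: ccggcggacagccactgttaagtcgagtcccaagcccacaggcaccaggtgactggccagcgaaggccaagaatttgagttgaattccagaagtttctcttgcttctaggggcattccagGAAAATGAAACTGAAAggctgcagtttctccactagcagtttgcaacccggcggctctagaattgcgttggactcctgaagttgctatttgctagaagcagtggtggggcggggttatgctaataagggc
Ifitm3, within an annotated exon of it, chr7:141010716-141010742, minus strand: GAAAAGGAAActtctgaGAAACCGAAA
Irf7, upstream of its start, chr7:141266482-141266674, minus strand: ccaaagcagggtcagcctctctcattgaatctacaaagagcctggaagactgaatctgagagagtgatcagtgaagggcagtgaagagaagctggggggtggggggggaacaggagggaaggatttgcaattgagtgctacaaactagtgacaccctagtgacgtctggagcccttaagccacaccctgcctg
The 3 matches of Isg15 overlapped one another and lay 78 to 57 bases before the start. The 2 matches of Bst2 also overlapped, at 130 to 115 bases before the start. The 2 matches of Ifitm3 lay 2 to 28 bases after the RefSeq start. Ifit3 held 2 separate matches on the other strand, the nearer one ending 113 bases before the start. A match describes the letters and is no evidence of binding.

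The 9 libraries listed 5022 barcode entries, which held only 1365 different barcodes, and 612 barcodes stood in more than 1 library. A shared barcode was therefore assigned to a single library, the one with its highest total of unique molecular identifiers (UMIs, which count captured molecules). Of 851 barcodes that passed quality limits, 732 were retained as myeloid and 119 were left out, 78 of them led by rod genes. The retained cells numbered 17 to 191 per library (251, 282 and 199 at day 0, 7 and 20) and held 20443 to 254551 UMIs per library, with medians of 625.5 to 1090 UMIs per cell. Day 7 replicate 3 was the smallest library with 17 cells, followed by day 20 replicate 3 with 33 cells. Sag had 11 UMIs in all entries together, at most 2 in any library. Levels below are the UMIs of a gene per 1000000 UMIs of all retained cells of a library (CPM), which suit a 3′ assay in which each molecule is counted once whatever its length. Nothing in the sources used here says how mice were divided among libraries, so p-values measure the spread between libraries only.

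Irf7, Ifitm3, Bst2 and Ifi27l2a were 4.54-fold to 9.65-fold higher after 7 days of light than in the dark, while Ly6e stood at 453 CPM or more and Isg15 at 165 CPM or less in every library. After 20 days Irf7, Bst2 and Ifi27l2a were lower again than at day 7, and Ifitm3 was still above day 0. Oasl2, Ifi204 and Ifit3 were sparse, with 2, 2 and 5 UMIs in all day 0 cells. In summed counts, fewer cells that carry a transcript and less transcript per cell cannot be told apart.

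**Figure D1:**
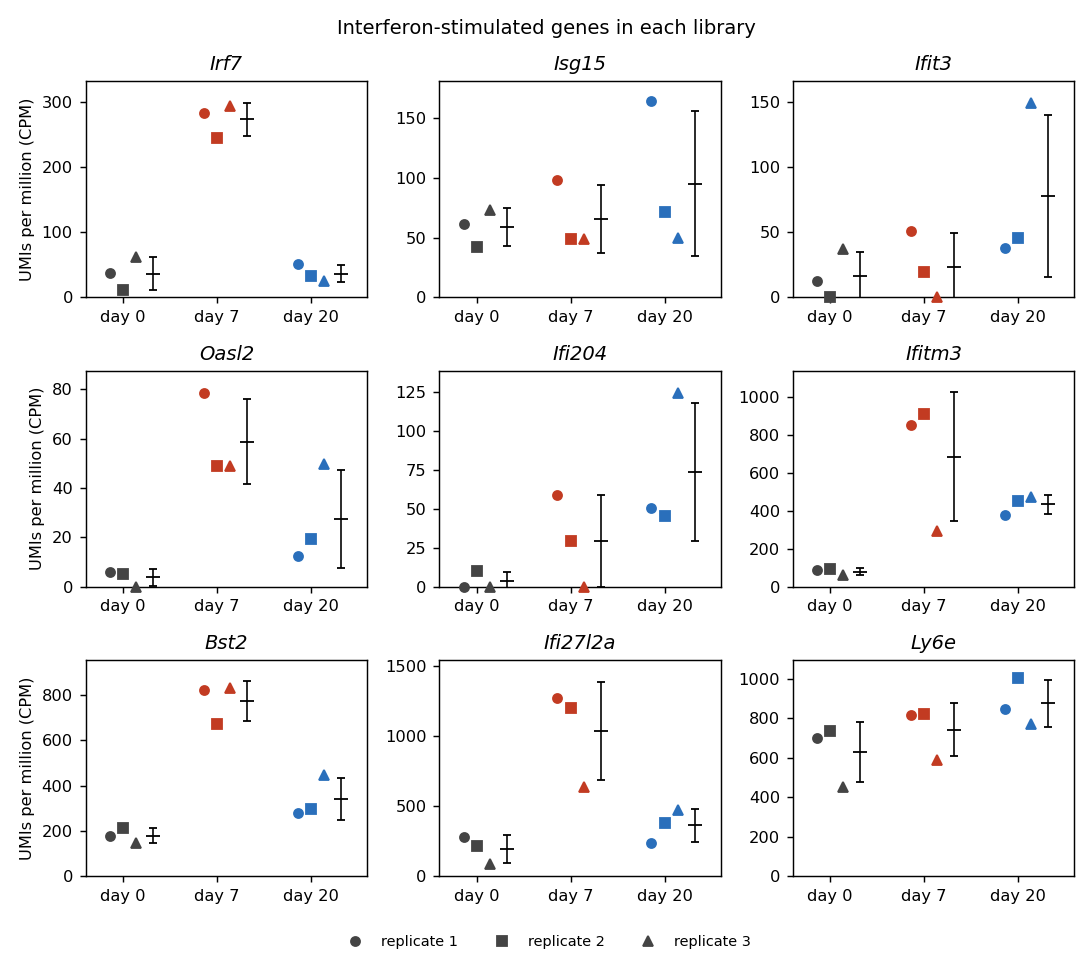
Level of each member gene in CPM (y axis, linear and separate for each gene) in the 9 libraries by day of light (x axis). Each point is a library, shaped by its replicate number, and the horizontal mark and bar give the mean and SD of 3 libraries (bars are cropped at 0). The 3 day 7 libraries lie above every day 0 library for Irf7, Oasl2, Ifitm3, Bst2 and Ifi27l2a.

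Irf7, the transcription factor of the set, stood at 36.8, 10.4 and 61.2 CPM in the day 0 libraries. At day 7 it reached 283, 244 and 293 CPM, and at day 20 it was 50.6, 32.6 and 24.9 CPM. The day 7 libraries lay apart from all others, and those of day 0 and day 20 overlapped. The rise at day 7 was 9.15-fold (log2 difference 3.19, SE 0.47, adjusted p = 0.000152, edgeR's quasi-likelihood test over 1471 genes), and day 20 was lower than day 7 by a log2 difference of -2.95 (SE 0.51, adjusted p = 0.00346). Between day 20 and day 0 the log2 difference was 0.24 (SE 0.63, adjusted p = 0.884), and it turned negative when day 0 replicate 2 was left out (-0.34). The fall to day 20 missed the threshold without day 7 replicate 1 (adjusted p = 0.0773), and DESeq2, which gave a log2 difference of -2.98, returned no adjusted p for it and so did not call it. The test covered genes above 97.7 CPM in at least 3 libraries, and Irf7 passed this limit only through its 3 day 7 libraries.

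Ifitm3, a membrane protein that blocks the entry of enveloped viruses, stood at 85.9, 93.7 and 61.2 CPM at day 0. At day 7 it was 852, 909 and 293 CPM (mean 685 ± 340, SD, n = 3), the lowest value in the 17-cell library. In day 7 replicate 2, 1 of 74 cells held 31 of the 93 Ifitm3 UMIs. At day 20 Ifitm3 was 380, 449 and 473 CPM. Every light-exposed library lay above every day 0 library, with log2 differences of 3.27 at day 7 (SE 0.37, adjusted p = 2.03e-05) and 2.37 at day 20 (SE 0.38, adjusted p = 0.00193). Day 20 and day 7 overlapped, and their difference did not pass the test (log2 -0.90, SE 0.33, adjusted p = 0.155). It passed without day 7 replicate 3 (-1.17, adjusted p = 0.0170).

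Bst2 (tetherin), which holds budding viruses at the cell surface, stood at 178, 213 and 147 CPM at day 0, at 821, 674 and 832 CPM at day 7 and at 278, 300 and 448 CPM at day 20. The libraries of the 3 days did not overlap. The rise at day 7 was 4.54-fold (log2 2.18, SE 0.30, adjusted p = 7.79e-05), and day 20 was lower than day 7 by a log2 difference of -1.33 (SE 0.30, adjusted p = 0.0156). The difference between day 20 and day 0 was 0.86 on the log2 scale (SE 0.31) and did not pass after adjustment (adjusted p = 0.178).

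Ifi27l2a, a small interferon-inducible protein, stood at 282, 213 and 85.6 CPM at day 0 and at 1273, 1202 and 636 CPM at day 7. At day 20 it was 240, 378 and 473 CPM, within reach of the day 0 libraries. The rise at day 7 was 5.78-fold (log2 2.53, SE 0.38, adjusted p = 0.000173), and the difference between day 20 and day 7 was -1.72 (SE 0.38, adjusted p = 0.0156). For Bst2 and Ifi27l2a the lower level at day 20 rested on few libraries. The call for Bst2 was lost without day 7 replicate 1, day 20 replicate 1 or day 20 replicate 2 (adjusted p = 0.0946, 0.111 and 0.106), and that for Ifi27l2a without these or day 7 replicate 2 (adjusted p = 0.0946, 0.0988, 0.0774 and 0.0605).

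Ly6e, a surface protein of the Ly6 family that interferon raises in many cells, stood at 700, 734 and 453 CPM at day 0. It was 817, 821 and 587 CPM at day 7 and 848, 1003 and 772 CPM at day 20. It was the most abundant member at day 0, and its log2 differences of 0.39 at day 7 (SE 0.28, adjusted p = 0.333) and 0.48 at day 20 (SE 0.27, adjusted p = 0.409) did not pass the test, although the day 20 libraries all lay above those of day 0.

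Across all genes tested, 138 rose at day 7 (9.38%) and 240 fell (16.3%), and Irf7, Ifitm3, Bst2 and Ifi27l2a were among those that rose. Irf7 and Ifitm3 reached the limit on low counts in no day 0 library, so they were tested only because they were high in light, and the count of members is not read against these shares. At day 20 against day 0, 15 genes rose (1.02%) and 22 fell (1.50%), and the members' only call was Ifitm3. At day 20 against day 7, 61 genes were higher (4.15%) and 15 lower (1.02%), among them Irf7, Bst2 and Ifi27l2a. The other 4 members did not reach the limit on low counts. In a fit with no such limit, which held all 9 members among 12945 genes, 6 members rose at day 7, Oasl2 and Ifi204 besides the 4 named, beside 0.695% of all genes. Only 1471 of the 12945 genes reached the limit, so the shares over all genes in the fit without it are mostly those of sparse genes. The count of members is not read against these shares either. In that fit Ifitm3 alone rose at day 20 against day 0 (0.162% of all genes), and Irf7 and Ifi27l2a were lower at day 20 than at day 7 (0.154% of all genes), while Bst2 was not called (adjusted p = 0.261). In the counts as deposited, with shared barcodes left in every library, the 4 genes still rose at day 7, by 1.51 for Irf7, 1.38 for Ifitm3, 1.20 for Bst2 and 1.44 for Ifi27l2a on the log2 scale. No member passed the test in either day 20 comparison in those counts.

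**Figure D2:**
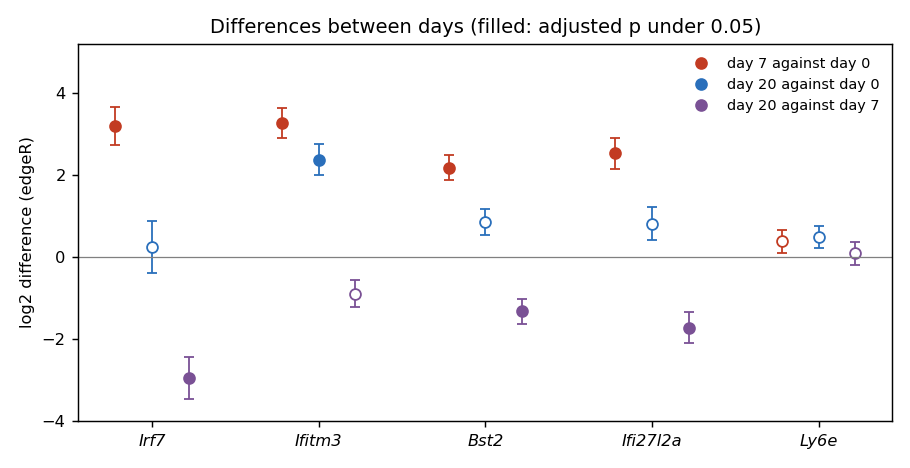
Log2 differences from edgeR (y axis) for the 5 members that passed the limit on low counts (x axis), with bars of 1 SE. Filled points passed an adjusted p of 0.05, and open points did not. Irf7, Ifitm3, Bst2 and Ifi27l2a lie between 2.18 and 3.27 at day 7 against day 0, and Ly6e lies at 0.39.

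Isg15, a ubiquitin-like modifier, had 24, 31 and 26 UMIs at day 0, 7 and 20. By library this was 61.4, 41.7 and 73.4 CPM at day 0 and 98.2, 48.9 and 48.9 CPM at day 7. At day 20 it was 165, 71.7 and 49.8 CPM. Single cells set some of these levels. In day 20 replicates 1 and 2, 1 cell each held 7 of 13 and 8 of 11 Isg15 UMIs. In day 0 replicate 2, 1 cell held 6 of 8. The days overlapped, and the pooled ratio of day 7 to day 0 was 1.50 (95% exact interval 0.849 to 2.66, counting error only).

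Oasl2, a member of the oligoadenylate synthetase family of antiviral proteins, had 2 UMIs in all day 0 cells, in different libraries. At day 7 it had 26 UMIs, of which 20, 5 and 1 came from replicates 1 to 3 (78.6, 48.9 and 48.9 CPM), and at day 20 it had 6 UMIs (12.7, 19.5 and 49.8 CPM). The ratio of day 7 to day 0 was 15.1 (95% exact interval 3.77 to 131), and in the fit without a limit on low counts the adjusted p was 0.0058.

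Ifi204, a member of the family of interferon-inducible DNA-binding proteins, had 2 UMIs at day 0, both in replicate 2. It had 15, 3 and 0 UMIs in the day 7 libraries and 4, 7 and 5 UMIs in those of day 20. The ratio to day 0 was 10.4 at day 7 (95% exact interval 2.49 to 92.6, adjusted p = 0.0463 without the limit) and 12.8 at day 20 (3.01 to 115, adjusted p = 0.0744 without the limit). Reads of Ifi204 may be shared with its close paralogs in the same cluster, which makes its counts uncertain to an extent that was not tested.

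Ifit3, which binds foreign RNA with its partner Ifit proteins and has a near-identical neighbour, Ifit3b, had 2, 0 and 3 UMIs at day 0. It had 13, 2 and 0 UMIs at day 7 and 3, 7 and 6 at day 20. The ratio to day 0 was 3.47 at day 7 (95% exact interval 1.20 to 12.2) and 5.13 at day 20 (1.79 to 17.9), and neither passed the test without the limit (adjusted p = 0.480 and 0.572). The 3 libraries of day 20 lay above those of day 0 for Ifi204 and Ifit3, at levels set by 3 to 7 UMIs each.

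Marker genes of cell types moved with the members' levels. The summed level of 8 microglial markers, all detected, was 12736 to 14108 CPM at day 0, 3591 to 3962 CPM at day 7 and 7143 to 9373 CPM at day 20. The 9 monocyte and macrophage markers, all detected, went the other way, at 1156 to 1534, 5576 to 10055 and 2814 to 5500 CPM. So did the 4 MHC class II (MHCII) genes, at 620 to 2325, 10065 to 40405 and 6090 to 14717 CPM. Among the monocyte and macrophage markers Lyz2 had the most UMIs, with 516, 2912 and 768 at day 0, 7 and 20. The study names Lyz2 as a marker of activated microglia. Whether the mix of cells or the transcripts within cells changed was not tested. Ccr2, which marks fresh monocytes, had 0 UMIs in the day 0 cells, 18 at day 7 and 1 at day 20. Markers of plasmacytoid dendritic cells, which produce interferon, stayed at 0 to 127 CPM in every library, and only 3 of 5 were detected. Rod markers were 1078 to 6007 CPM at day 0, 323 to 978 CPM at day 7 and 189 to 974 CPM at day 20. The levels of 10 immediate-early and stress genes, which tissue handling also induces, were lower at day 7 than at day 0 in 10 of 10 tested, and the list of 11 summed to 26022 to 29093 CPM at day 0, 2013 to 4256 CPM at day 7 and 5724 to 16071 CPM at day 20. Of 14 lymphocyte markers, 10 were detected. They summed to 18.4 to 83.3 CPM at day 0, 88.0 to 636 CPM at day 7 and 24.9 to 63.3 CPM at day 20. Each day 7 library thus lay above all others, as for Irf7, Bst2 and Ifi27l2a. The margin was small, at 88.0 CPM in day 7 replicate 2 against 83.3 CPM in day 0 replicate 2. The part of the lymphocytes, the rods and the immediate-early genes in the members' levels was not tested.

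The rise at day 7 was measured again in 2 kinds of cells chosen by other genes, after each cell had been thinned to 500 UMIs to set the classes. In cells with 2 or more UMIs of the microglial markers, Irf7 had a mean of 39.6 CPM at day 0 (SD 26.5), 263 CPM at day 7 (SD 53.7) and 28.4 CPM at day 20 (SD 8.52). The rise at day 7 in these cells was 2.86 for Irf7, 2.74 for Ifitm3, 2.14 for Bst2 and 2.34 for Ifi27l2a on the log2 scale (edgeR adjusted p = 0.003, 0.00101, 0.000586 and 0.00313). In cells with at most 1 UMI of the MHCII genes the same differences were 3.12, 3.21, 1.83 and 2.76 (edgeR adjusted p = 0.000832, 0.000473, 0.00142 and 0.0003). In both kinds of cells Irf7 and Ifitm3 were below the limit on low counts in every day 0 library. They were thus tested there only because they were high in light. Irf7 had 3 and 2 UMIs in day 7 replicate 3 of the 2 kinds. These classes are ranges of marker counts, not cell types, and day 7 replicate 3 had only 7 and 5 cells in them. Their makeup also changed with the day. Of the cells with microglial UMIs, 5 of 187 were MHCII-positive at day 0, 57 of 113 at day 7 and 23 of 91 at day 20. Of the MHCII-negative cells, 18 of 200 were poor in microglial UMIs at day 0, 51 of 107 at day 7 and 31 of 99 at day 20. The mix of marker classes was therefore not held fixed by either choice.

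At day 20 against day 7, Irf7 was lower in both kinds of cells (log2 -3.17 and -2.89, edgeR adjusted p = 0.0183 and 0.0119), as was Bst2 (-1.65 and -1.38, adjusted p = 0.0170 and 0.0370). Ifi27l2a passed in the MHCII-negative cells (-1.96, adjusted p = 0.0129) and not in the cells with microglial transcripts (-1.69, adjusted p = 0.0615). Ifitm3 at day 20 against day 0 missed the threshold in both (log2 2.06 and 2.17, adjusted p = 0.0524 and 0.0556).

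**Figure D3:**
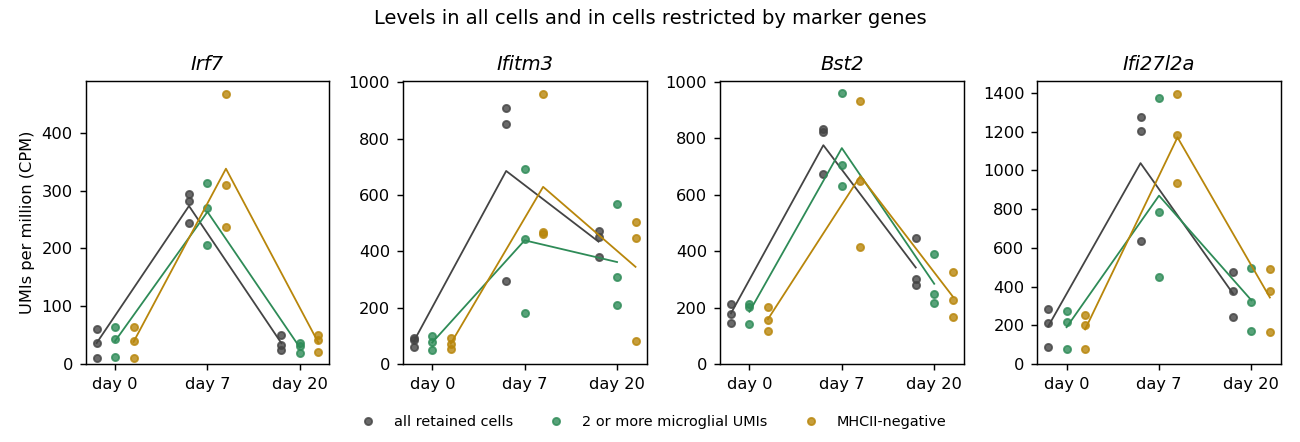
Level in CPM (y axis) of the 4 members that rose, by day (x axis), in all retained cells, in cells with 2 or more microglial UMIs and in MHCII-negative cells. Points are libraries and lines join the means of 3 libraries. Irf7 peaks at day 7 in each set of cells, with means of 274, 263 and 338 CPM.

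MHCII-positive cells, with 2 or more UMIs of H2-Aa, H2-Ab1, H2-Eb1 and Cd74 among 500, made up 1.37% to 4.44% of the cells at day 0, 37.7% to 65.1% at day 7 and 28.0% to 43.8% at day 20. The 606 cells deep enough to class included 116 with 1 such UMI and 51 with 2, next to the limit. Positive and negative cells were compared within the 4 light-exposed libraries that held at least 10 of each, replicates 1 and 2 of days 7 and 20. Of 621 genes tested, 4 were higher in positive cells (0.644%), namely the 4 genes that define the class, and no member passed. Of the 4 members tested, Bst2 alone had an unadjusted p under 0.05 in edgeR's quasi-likelihood test, as had 28 of the 621 genes (4.51%). Its levels in positive cells were 1002, 774, 527 and 480 CPM, and in negative cells of the same libraries 416, 649, 166 and 227 CPM. Bst2 was higher in positive cells in 4 of 4 libraries (log2 1.00, SE 0.31, adjusted p = 0.766), and the difference did not pass after adjustment.

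Ifitm3 was higher in positive cells in 2 of 4 libraries (log2 0.70, SE 0.59), Ifi27l2a in 2 of 4 (-0.16, SE 0.24) and Ly6e in 2 of 4 (0.02, SE 0.30), and the sign of Ifi27l2a and Ly6e turned under other limits. Irf7 was too low for this test, with 304 and 124 CPM in the positive cells of day 7 replicates 1 and 2 and 237.5 and 310 CPM in the negative cells. Oasl2 had 19 and 3 UMIs in the positive cells of these libraries (107 and 92.9 CPM) and 0 and 2 in the negative cells (0 and 29.5 CPM). At day 20 it had 1 and 0 UMIs in the positive cells of replicates 1 and 2 and 0 and 3 in the negative cells, so the direction differed between libraries. With the day 7 libraries pooled, Irf7 stood at 314 CPM (95% exact Poisson interval 228 to 422) in MHCII-positive cells poor in microglial transcripts and at 214 CPM (127 to 339) in MHCII-positive cells with them. In MHCII-negative cells it stood at 285 CPM (178 to 431) and 273 CPM (159 to 438). The counting intervals of Irf7 thus overlapped in the 4 classes, as did those of Isg15, Ifit3 and Ifi204. Some intervals of Ly6e, Ifitm3, Bst2, Ifi27l2a and Oasl2 did not. Ly6e stood at 427 CPM (294 to 600) in MHCII-negative cells poor in microglial transcripts. In MHCII-positive cells with them Ly6e stood at 1143 CPM (925.5 to 1395). These intervals leave out the spread between libraries.

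In single cells the members were found in few molecules each. At day 7, 67 of 282 cells held an Irf7 UMI, and no cell held more than 5. Ifi27l2a was found in 174 of these cells, with at most 17 UMIs in a cell, and Ifitm3 in 118, with at most 31. After thinning to 500 UMIs, an Ifi27l2a UMI was found in 8.64% ± 5.58 of the day 0 cells, 32.8% ± 12.6 of the day 7 cells and 16.7% ± 4.81 of the day 20 cells (mean ± SD, n = 3 libraries). For Irf7 the shares were 1.94% ± 2.28, 8.74% ± 1.74 and 2.62% ± 2.28, and for Bst2 6.59% ± 3.87, 23.7% ± 7.36 and 14.1% ± 4.02.

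Shares were also taken in the barcodes left out as non-myeloid. These are no clean background, since only 11 of the 119 had under 3 UMIs of the myeloid markers. Whether non-myeloid cells express members was not tested. Of 91 such barcodes at the same depth, 2.20% held Irf7 (95% Wilson interval 0.605% to 7.66%), 4.40% Ifi27l2a (1.72% to 10.8%) and 1.10% Bst2 (0.194% to 5.97%), with a median of 1367 UMIs before thinning against 1071 in the retained cells. Of these barcodes 66 came from day 0, where the members were low, 14 from day 7 and 11 from day 20. Among the 14 of day 7, 3 held Ifi27l2a (21.4%), 1 held Bst2, 1 held Ifitm3 and none held Irf7. The left-out barcodes of day 7 were thus too few to set the day 7 shares against them, and the pooled shares are mostly those of day 0. None of the 91 held Isg15, Ifit3 or Ifi204 (upper Wilson bound 4.05%), and the mean shares of these 3 genes at each day, 0.379% to 3.92%, lay below that bound.

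Cells that held several members became more common in light. The share of such cells also rises when single members are each found in more cells. It therefore does not show that members gather in the same cells. At 500 UMIs, 2 or more of the 9 genes were found in 6.85%, 11.4% and 8.89% of the day 0 cells, in 47.9%, 33.3% and 16.7% of the day 7 cells and in 20.8%, 28.0% and 18.5% of the day 20 cells. Every light-exposed library lay above every day 0 library. The mean share was 18.5 percentage points higher in the 6 light-exposed libraries than in the 3 of day 0 (two-sided exact permutation test, p = 0.0357, over 84 splits). Day 7 and day 20 each against day 0 gave p = 0.1, the smallest that 3 libraries against 3 allow in this exact permutation test, and day 20 against day 7 gave p = 0.4. The share of cells with 3 or more members did not pass (9.87 points, exact permutation p = 0.107), nor did 2 or more in the counts as deposited (8.74 points, exact permutation p = 0.0595). Unthinned, the shares were 18.9% to 33.7% at day 0, 58.8% to 70.2% at day 7 and 31.9% to 42.4% at day 20.

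**Figure D4:**
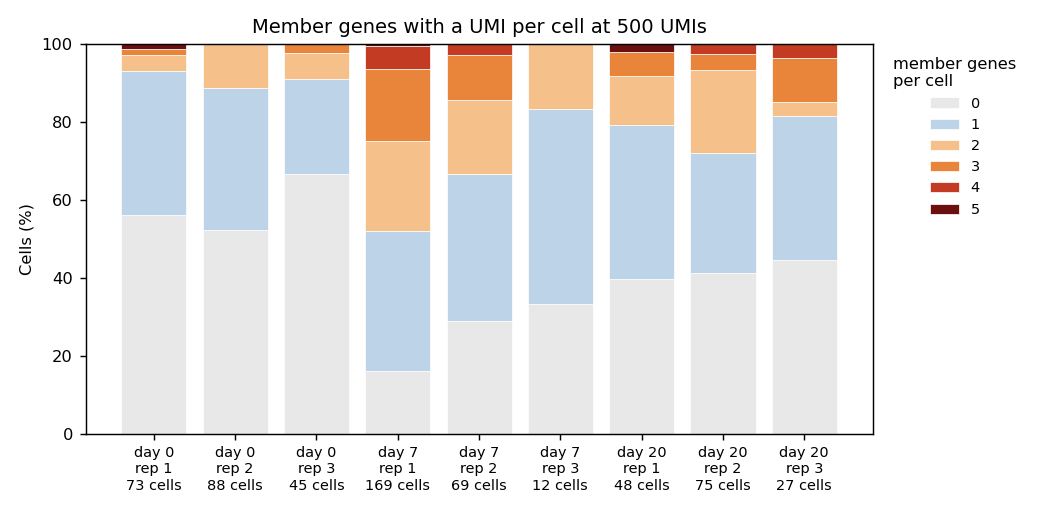
Share of cells (y axis, percent, stacked to 100) by the number of member genes with a UMI after each cell was thinned to 500 UMIs, in each library (x axis, with its number of cells). The share with 2 or more members, orange and darker, runs from 6.85% to 11.4% at day 0 and from 16.7% to 47.9% at day 7.

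Other members were also counted in the cells that did and did not hold Irf7. In the day 7 cells at 500 UMIs, Ifi27l2a was found in 9 of 24 cells with an Irf7 UMI (37.5%) and in 92 of 226 without one (40.7%). Bst2 was found in 29.2% and 28.3%, and Ifitm3 in 41.7% and 27.9%. These shares describe sparse counts in cells of the same libraries, and a cell without an Irf7 UMI may still carry the transcript.

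The rest of the interferon pathway was read from a list of 108 other genes, of which 96 had a UMI and 22 could be tested. At day 7 against day 0, 8 rose and 3 fell in edgeR, beside 9.38% and 16.3% of all genes tested, so that the genes that fell made up a share near that of all genes. At day 20 against day 0 none passed in edgeR (5 at an unadjusted p under 0.05) or in DESeq2. At day 20 against day 7 Socs3 alone passed in edgeR, while DESeq2 called 1 gene higher and 2 lower. In the fit without a limit on low counts, 4 of the 96 genes rose at day 7 and 2 fell, Irf1 and Socs3. Irf1, named after its value was seen, had 45, 5 and 16 UMIs at day 0, 7 and 20. The median log2 difference of the 22 genes at day 7 was 0.25, beside -0.09 over all genes tested.

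Of 10 ligand genes listed, Ifng had 1 UMI in day 20 replicate 2 and the others had 0 in all libraries, at a depth that allows up to 3 UMIs of each. The receptor genes summed to 624 to 953 CPM at day 0, 440 to 762 CPM at day 7 and 607 to 710 CPM at day 20. Among them Ifngr1 had the most UMIs at each day, and of the 4 tested none passed. The 13 genes of nucleic acid sensors all had UMIs, but none reached the limit on low counts. In the fit without that limit 1 of them rose at day 7, Zbp1, with 1, 29 and 4 UMIs at day 0, 7 and 20. Zbp1 was named after its value was seen. DESeq2 also called 1 of the 13 higher at day 7.

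Further down the pathway, Jak1, a kinase of the receptors, fell at day 7 (mean 120 to 50.9 CPM, log2 -1.62, edgeR adjusted p = 0.0372). Irf5, a regulatory factor of macrophages, fell from a mean of 258 CPM (SD 34.0) to 77.7 CPM (SD 25.6), and stood at 128 CPM (SD 47.4) at day 20. Jak1 and Irf5 had 13 and 33 UMIs at day 7. Neither fall was called in DESeq2 or in the fit without a limit on low counts. Socs3, which is induced by cytokines and inhibits their receptors, fell from 1068 CPM (SD 449) to 91.4 CPM (SD 50.2) and stood at 641 CPM (SD 436) at day 20 (log2 -3.72 at day 7 against day 0 and 3.04 at day 20 against day 7, edgeR adjusted p = 0.000175 and 0.00621). Its direction was opposite to that of the members that rose. It was the same as that of the immediate-early and stress genes, whose sum had means of 27711, 3243 and 10707 CPM at day 0, 7 and 20. The part of tissue handling in the level of Socs3 was not tested.

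Of 45 further genes that type I interferon induces, 6 could be tested, and 4 of these rose at day 7. They were Ms4a6c, a membrane protein of monocytes (log2 2.63, mean 51.5 to 272 CPM), Ifitm2, a neighbour of Ifitm3 in sequence and place (2.38, mean 28.5 to 106 CPM), Lgals3bp, a secreted glycoprotein (1.32, mean 97.2 to 217 CPM), and Shisa5 (1.19, mean 108 to 221 CPM). The other tested genes of this list, Cxcl10 and Lgals9, did not pass and are named to complete the 6. Cxcl10 had 96, 36 and 17 UMIs at day 0, 7 and 20, and 28 of the 36 came from day 7 replicate 3. Lgals9 had 51, 34 and 28 UMIs. Ifitm2 reached the limit on low counts in no day 0 library and was tested through its light-exposed libraries alone, which favours a rise. In the fit without the limit, 3 of the 43 genes with a UMI rose and none fell, Ms4a6c, Ifitm2 and Ms4a4c, the last of these named after its value was seen. Ifitm2 and Ifitm3 are alike, and reads that fit both could have been lost from either. Of 17 genes that interferon-gamma induces, 6 could be tested, and 4 of these rose. These were the class I antigen presentation genes H2-D1 (1.03), B2m (0.92) and H2-K1 (0.94) and the immunoproteasome subunit Psmb9 (1.33), all smaller changes than those of the 4 members that rose. Psmb9 too reached the limit in no day 0 library. In the edgeR fit without the limit none of the 17 passed (5 were higher with an unadjusted p below 0.05), whereas 3 rose in DESeq2. Both lists also hold genes that monocytes express at a high level, and the part of cell mix in them was not tested.

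The genes whose profile over the 9 libraries came nearest to the mean profile of the 5 tested members were Lyz2, H2afj, Zfos1, Gyg, Xaf1 and 2700094K13Rik. Their root mean square differences ran from 0.358 to 0.448 in log2(CPM + 10), beside a median of 1.21 over 2237 genes. The members themselves differed from their mean by 0.849 (Irf7), 0.788 (Ly6e), 0.628 (Ifitm3), 0.401 (Ifi27l2a) and 0.263 (Bst2). The mean profile was thus not close to every member. Lyz2, a macrophage lysozyme and one of the monocyte and macrophage markers above, had means of 1215, 6981 and 3253 CPM at day 0, 7 and 20. Xaf1, one of the 45 genes that type I interferon induces and too low for the test, had means of 21.2, 84.9 and 46.7 CPM.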

How the data were processed

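Retinal CD45+ CD11b+ cells of 9 libraries, 3 per day, were analysed. Per the labels the authors processed reads with Cell Ranger and the mm10 genome (version not given in the sources used here), and the deposited values are counts of UMIs per gene and barcode, not normalized. How Cell Ranger divides reads between similar genes can lower the counts of both.

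From these counts, barcodes with at least 200 genes and under 10% mitochondrial UMIs were kept in the library of their highest total. A barcode was retained with at least 3 UMIs of the 14 broad myeloid markers and no non-myeloid list of 3 or more UMIs reaching 50% of them. No doublet caller was run. Sums per library were tested with edgeR 4.0.16 in R 4.3.3 (quasi-likelihood, TMM factors, all 9 libraries in a single fit, Benjamini-Hochberg over all genes tested, threshold 0.05), a method tested on simulated data. The SEs of edgeR's log2 differences were derived from the test, as the absolute difference divided by the square root of its F statistic. The comparison of MHCII classes had the library as a block. DESeq2 1.42.0, other scalings, limits and barcode sets, and each library left out in turn were alternatives. Intervals cover counting error only and have 95% confidence. Members, gene lists and tests were chosen with earlier results of these data known. Pathway genes were named if they passed the threshold, at most 10 per comparison, and the 6 nearest profiles by root mean square difference among genes with at least 50 UMIs. Sequences are from RefSeq and positions of exons from GENCODE, on GRCm38.p6, the build of mm10. Restrictions to microglial or MHCII-negative cells, and the fit without both libraries under 40 cells, were added after seeing the data.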

Additional observations from a re-analysis of the deposited data

Results flagged for a closer look

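The difference of Ly6e between MHCII-positive and MHCII-negative cells pointed one way in both day 7 libraries and the other way in both day 20 libraries. On the log2(CPM + 10) scale it was 0.64 and 0.35 in replicates 1 and 2 of day 7 and -0.73 and -0.22 in replicates 1 and 2 of day 20. The mean at day 7 exceeded that at day 20 by 0.963. This difference between days was not tested, and it rests on 2 libraries per day.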

How the results depend on the processing

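The rise of Irf7, Ifitm3, Bst2 and Ifi27l2a at day 7 passed the test in all 21 alternatives run, with log2 differences of 1.51 to 3.67 for Irf7, 1.38 to 3.65 for Ifitm3, 1.20 to 2.38 for Bst2 and 1.44 to 2.91 for Ifi27l2a. Scaling by library totals alone moved the median log2 difference of all genes from -0.09 to -0.29 at day 7 and from 0.07 to 0.21 between days 7 and 20, and it changed no member's call. Counts of members and genes below are those with an adjusted p under 0.05, from edgeR unless DESeq2 is named.

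In the counts as deposited, 76 genes of all tested passed at day 7 against day 0 (378 in the analysis reported), 1 at day 20 against day 0 (37) and 0 at day 20 against day 7 (76), with no member in the last 2 comparisons. The cause was not tested. With non-myeloid barcodes kept, 183 genes passed at day 7 and 12 at day 20 against day 7, with 1 member among the latter. DESeq2 gave 234 genes at day 7, and 2 members at day 20 against day 7, where Irf7 had no adjusted p. A fit without a limit on low counts gave 49 at day 20 against day 7, and a minimum of 100 genes per barcode 56 at day 20 against day 0. Without both libraries under 40 cells, 622 genes passed at day 7 and 133 at day 20 against day 7. In cells with microglial UMIs only, 187 genes passed at day 7 and 13 at day 20 against day 0, and in MHCII-negative cells 15 did, each with 0 members at day 20 against day 0. Leaving out each library in turn gave 189 to 535 genes at day 7, 19 to 50 at day 20 against day 0, 15 to 108 at day 20 against day 7 and 4 to 12 between MHCII classes. The members that passed then numbered 4 at day 7, 1 at day 20 against day 0 and 0 to 4 at day 20 against day 7, where 0 passed without day 7 replicate 1.

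Among differences that did not pass, the sign turned for Irf7 at day 20 against day 0 (-0.31 in cells with microglial UMIs, -0.076 with non-myeloid barcodes kept), for Ly6e at day 20 against day 7 (-0.18 in cells with microglial UMIs, -0.028 as deposited, -0.019 with a minimum of 100 genes) and for Ifi27l2a between MHCII classes (0.11 and 0.44 with limits of 1 and 3 UMIs). It also turned for Ly6e between MHCII classes (-0.067 without a limit on low counts, -0.10 with a limit of 3 UMIs, -0.056 without the library block). Leaving out single libraries gave -0.34 to 0.72 for Irf7 at day 20 against day 0, and for Ly6e -0.04 to 0.15 at day 20 against day 7 and -0.22 to 0.30 between MHCII classes. The difference in the share of cells with 2 or more members was 14.4 to 20.7 points without each library, past the threshold in 4 of 9, 8.74 points as deposited (exact permutation p = 0.0595) and 9.87 points for 3 or more members (p = 0.107, exact permutation).

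To look for pairing, the log2 CPM of each tested gene was taken as its deviation from the mean of its day. Correlations of these deviations between same-numbered libraries of different days were low, at -0.036 to 0.145. For libraries of unlike number they were -0.139 to 0.087. The highest, 0.145 and 0.102, were those between day 0 and day 20 for replicates 2 and 3. Whether the numbers pair the libraries cannot be settled from such low correlations. With a replicate block, 367, 45 and 73 genes and 4, 1 and 3 members passed in the 3 comparisons of days, and the share differed by 18.5 points (exact permutation p = 0.0370). Depth limits the sparse members most: with 2 UMIs at day 0, Oasl2 and Ifi204 had ratios whose intervals span more than a factor of 30.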
